A study of Mus musculus with 9 samples.

Results

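The comparison described here sets knee joints that were operated on and given a virus carrying PC2 against knee joints that had no operation. It takes in 6 of the 9 RNA sequencing libraries of the study, 3 labelled PC2 and 3 labelled Non surgery. The remaining 3, labelled Luc, came from operated joints given a control virus and are used for values side by side and for 1 direct test. The PC2 and Luc mice were male C57BL/6 animals whose anterior cruciate ligament was cut at 8 weeks of age (ACLT). A lentivirus expressing PC2 or Luc was put into the articular cavity 1 week after the operation, and joints were taken 8 weeks after the virus. The Non surgery mice had no operation by their label, which names no virus for them, and the labels do not give their age at collection. Whole joints were used, RNA of the mice of a group was mixed, and each mixture was sequenced as 3 technical repeats, so a p-value here measures technical spread and holds no difference between mice. The operation, the virus and the pool of mice change together between the groups and cannot be told apart.

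Cutting the anterior cruciate ligament makes the knee unstable and is a common way to bring on osteoarthritis in mice, a disease in which articular cartilage wears away while bone, synovium and ligaments remodel. Cartilage is built by chondrocytes, which lay down collagen II, IX and XI fibrils filled with the proteoglycan aggrecan, and it is broken down by matrix metalloproteinases and ADAMTS enzymes. The study's title names nucleolar homeostasis, cellular senescence and osteoarthritis. A whole joint also contains bone marrow, muscle and fat, and each of them adds its own RNA to the libraries.

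Libraries held 17835989 to 19004316 counts in genes. A principal component analysis placed 65.1% of variance on a first component that set Non surgery apart and 15.3% on a second that set Luc apart from PC2. Counts of mitochondrially encoded genes made up 9.94% ± 0.92 (SD, n = 3) of Non surgery, 5.33% ± 0.42 of Luc and 5.72% ± 0.13 of PC2 libraries. Defining markers of cartilage (Col2a1, Acan), bone (Bglap, Sost), synovium (Prg4), muscle (Acta1, Ckm), marrow (Mpo, Alas2) and fat (Adipoq) were present in all 9 libraries. Of the skin markers, Krt14 had 0 counts in all 9 libraries, which allows up to 3 counts per library, and Krt5 had 0 or 1. Levels below are CPM, counts scaled to library sizes corrected by TMM, a normalization that keeps a few abundant genes from shifting all others. A change is a log2 fold change with its standard error (SE) unless it is called a fold.

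An adjusted p under 0.05 was reached by 10952 of 17478 genes (62.7%), 5505 of them higher (31.5%) and 5447 lower (31.2%) in PC2 than in Non surgery. With a change of at least 2-fold these were 2860 (16.4%), of which 1718 genes were higher (9.83%) and 1142 lower (6.53%). Scaling by library size alone moved the median change of all genes from 0.010 to 0.17 and the split to 2122 higher and 834 lower, so directions are relative to the TMM scale. Between PC2 and Luc the shares were lower, with 6058 genes at an adjusted p under 0.05 (34.7%), 578 of them at least 2-fold (3.31%), and no overlap of libraries in 8394 (48%). Because most genes pass, a share of a gene list near these background shares is no result about that list, and the size of the change is given beside each count. Among genes whose higher group averaged 5 CPM or more and whose libraries did not overlap, leaving out unnamed gene models, receptor segments and pseudogenes, the 10 largest rises were Fosb, Col9a1, Fos, Cxcl1, Col2a1, Tmem196, Col9a3, Mmp3, Chst5 and Epyc, between 3.80 and 6.57. Cartilage collagens, immediate-early transcription factors, a chemokine and a matrix protease stand in this set. Under the same limits the 10 largest falls were Pdk4, Myh7, Ucp3, Lipg, Slc25a34, Myl3, Lrrc52, Ankrd2, Slc15a2 and Epx, between -3.71 and -5.54. They include fuel genes, slow muscle genes and a granule protein of eosinophils.

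**Figure D1:**
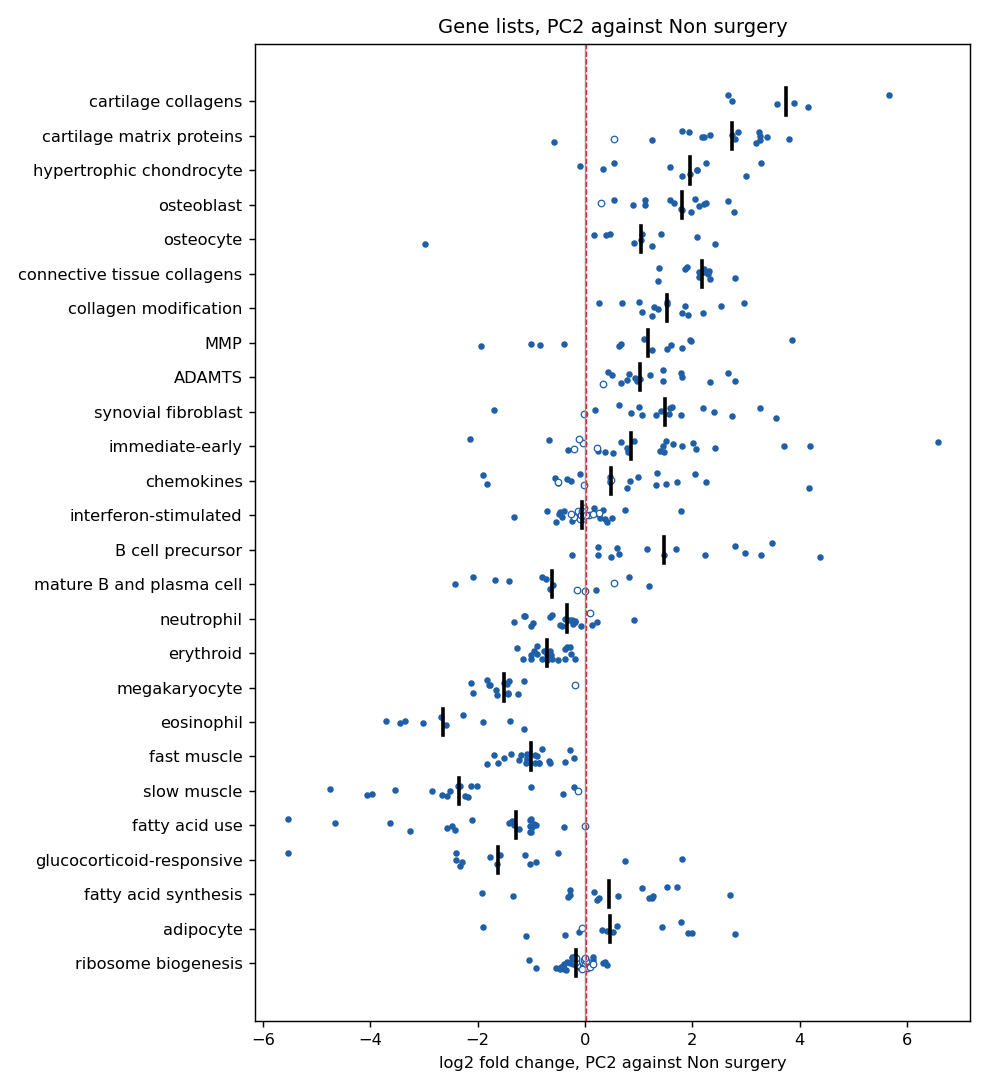
Each point is the log2 fold change of 1 gene between PC2 and Non surgery libraries (x axis), with gene lists as rows; filled points passed an adjusted p of 0.05, open points did not, and black bars are list medians. The red dashed line is the median of all genes tested (0.010). Cartilage collagens have a median of 3.74, the slow muscle row (slow and oxidative fibre genes) of -2.34 and eosinophil genes of -2.64.

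Cartilage genes showed the largest shift upwards of any list plotted. All 6 cartilage collagens rose, with a median of 3.74 against 0.010 for all genes tested. Col2a1, the main fibril collagen of cartilage (chromosome 15, 97975602 to 98004695 in GRCm38), read 226, 234 and 201 CPM in Non surgery, 2231, 2277 and 2308 CPM in Luc and 3886, 3939 and 3918 CPM in PC2 libraries. The 3 groups did not overlap, and PC2 was the highest, where 66% of all genes had no overlap between PC2 and Non surgery libraries. Its change from Non surgery was 4.15 ± 0.044, a 17.8-fold rise, and PC2 stood 0.78 ± 0.039 above Luc (adjusted p = 3.0e-10).

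Collagen IX decorates the surface of collagen II fibrils and is made from 3 genes. Col9a1 read 3.66, 3.28 and 3.24 CPM in Non surgery, 57.6, 55.5 and 59.0 CPM in Luc and 173, 169.8 and 171 CPM in PC2 libraries, again with PC2 highest and no overlap. It rose by 5.66 ± 0.057, Col9a3 by 3.90 ± 0.052 and Col9a2 by 3.58 ± 0.074. All 3 were also higher in PC2 than in Luc, by 1.58 ± 0.040, 1.49 ± 0.044 and 1.21 ± 0.063. Col11a1 and Col11a2, chains of the fibril core, rose by 2.73 and 2.66 and stood 0.58 and 0.92 above Luc.

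Of 17 other cartilage matrix proteins tested, 15 rose and 1 fell (median 2.74). Epyc, a small proteoglycan, rose by 3.80 ± 0.24, and the matrilins Matn3 and Matn4 by 3.39 ± 0.097 and 3.26 ± 0.10. Ucma, Snorc and Cilp2 rose by 3.27, 3.23 and 3.18. Acan, the aggrecan core protein, read 151, 167 and 156 CPM in Non surgery, 395, 395 and 405 CPM in Luc and 542, 554 and 556 CPM in PC2 libraries, a rise of 1.80 ± 0.038. Matn1, another matrilin, went the other way and fell by 0.57 ± 0.18, from 3.29 ± 0.329 to 2.21 ± 0.201 CPM (SD, n = 3), and its call was lost without Non surgery replicate 1 (edgeR adjusted p = 0.051, change -0.51) or PC2 replicate 1 (edgeR adjusted p = 0.055, change -0.50). Crtac1 did not pass (0.54 ± 0.37, adjusted p = 0.22), and passed without PC2 replicate 2 (0.85). In the direct test, 14 of the 17 were higher in PC2 than in Luc and 0 lower, where 16.1% of all genes were higher and 18.6% lower. Cytl1, a small secreted protein of cartilage, is outside the naming rule and was chosen after its values were seen. It read 126, 125 and 126 CPM in Non surgery, 139.7, 140.4 and 132 CPM in Luc and 479.6, 487 and 482 CPM in PC2 libraries. For Cytl1 the PC2 libraries stood 1.81 ± 0.034 above Luc, while the Luc libraries lay only slightly above Non surgery, without overlap.

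The list of chondrocyte transcription factors, which also holds the secreted ligand Gdf5, was mixed, with 7 of 12 genes higher and 2 lower. Sox9, which drives the chondrocyte programme, rose by 2.03 ± 0.063, from 12.6 ± 1.16 to 51.6 ± 0.849 CPM, and its partner Sox5 by 1.74 ± 0.089. Sox6, the other partner, fell by 0.79 ± 0.036, and Mef2c fell by 0.76 ± 0.039, and both are also expressed in muscle. The muscle lists were lower in the same libraries. The 22 genes of the fast muscle list, which also holds markers of muscle at large, were all lower. Their summed level was 87556 to 90584 CPM in Non surgery, 36575 to 37062 CPM in Luc and 42504 to 42653 CPM in PC2 libraries. Acta1 and Ckm, defining muscle markers, fell, with changes of -1.07 and -1.09. In bulk RNA, fewer cells of a type and less RNA per cell cannot be told apart, and the part of the lower muscle share in the rise of cartilage and bone genes and in the changes described below was not tested.

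**Figure D2:**
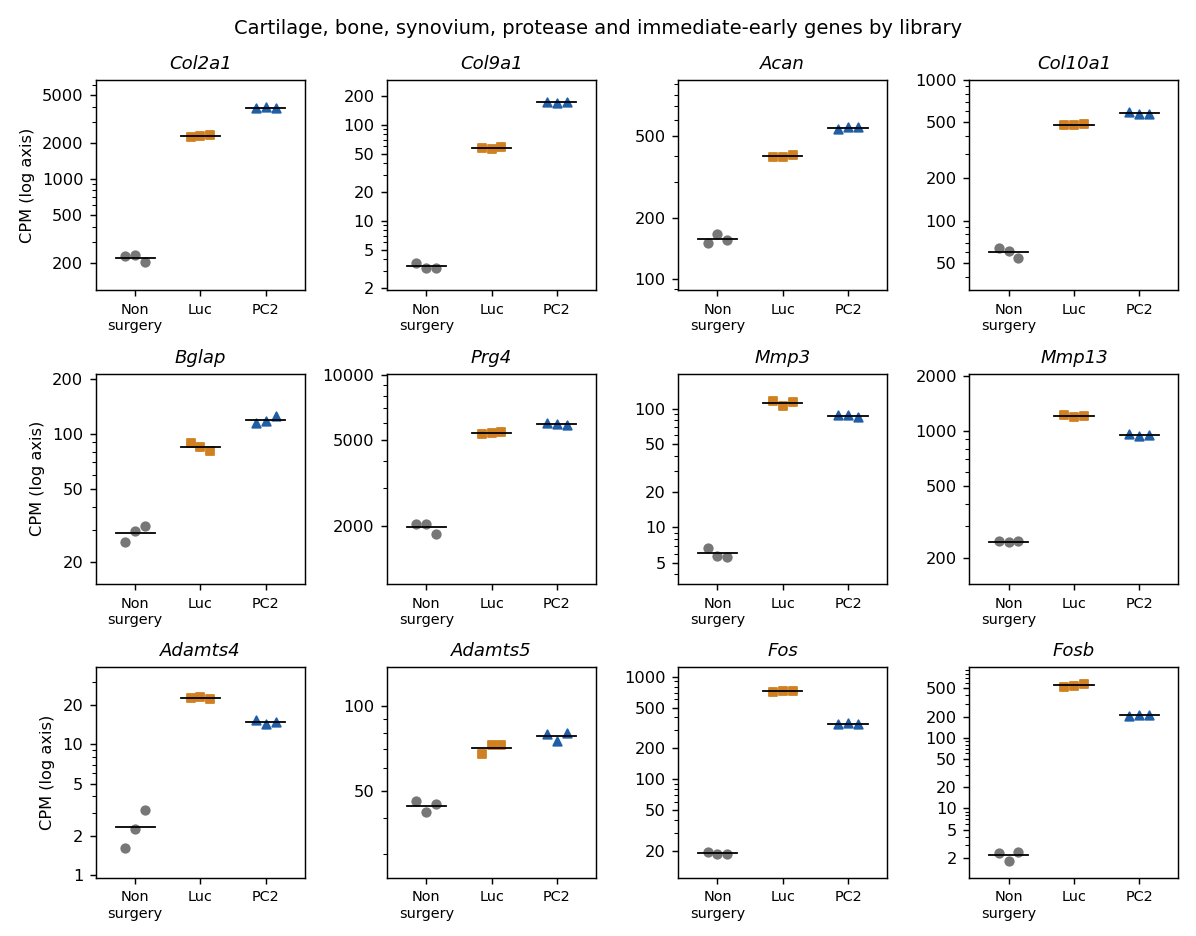
CPM of 12 genes by library on log axes, with 3 libraries per group (grey Non surgery, orange Luc, blue PC2) and a bar at each group's mean. Col2a1 and Col9a1 are highest in PC2, whereas Mmp3, Mmp13, Adamts4, Fos and Fosb are highest in Luc; in each of the 12 genes the PC2 libraries lie above the Non surgery libraries.

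Hypertrophic chondrocytes are the last stage before cartilage is replaced by bone, and they make collagen X. Of 11 genes listed for prehypertrophic and hypertrophic chondrocytes, 10 rose and 1 fell (median 1.95). Phospho1, Ibsp, Alpl and Sp7 are also counted in the osteoblast list, Spp1 among matricellular proteins and Mmp13 among matrix metalloproteinases. Col10a1 read 64.3, 60.7 and 54.7 CPM in Non surgery, 476, 475 and 484 CPM in Luc and 590.1, 569 and 576 CPM in PC2 libraries. It rose by 3.27 ± 0.048 and stood 0.27 ± 0.043 above Luc. Panx3, a channel of these cells, rose by 3.01 ± 0.076, and Ihh, the hedgehog signal of the growth plate, by 2.08 ± 0.14. Vegfa, the vessel growth factor, fell by 0.098 ± 0.040 from 136 ± 6.15 to 127 ± 3.65 CPM, a call lost without Luc replicate 1 (-0.10), Non surgery replicate 2 (-0.063), PC2 replicate 1 (-0.088) or PC2 replicate 2 (-0.084) and turned to 0.060 under library size scaling.

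Osteoblast and mineralisation genes rose in 15 of 16 and fell in 0 (median 1.80). The transcription factor Dlx3 rose by 2.78 ± 0.082, the sphingomyelinase Smpd3 by 2.66 ± 0.049 and Alpl, the phosphatase of mineralising bone, by 2.25 ± 0.045. Bglap, which encodes osteocalcin, rose by 2.04 ± 0.062, from 28.9 ± 2.83 to 119 ± 5.53 CPM. Bglap and Bglap2 are close copies, so the split of reads between them is uncertain. Ifitm5 did not pass (0.30 ± 0.31, adjusted p = 0.42).

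Osteocytes, the cells embedded in bone, gave a smaller and less even shift: 10 of 11 rose and 1 fell (median 1.04). Sost, the osteocyte inhibitor of Wnt signalling, read 8.69, 8.28 and 7.51 CPM in Non surgery, 30.3, 31.1 and 31.6 CPM in Luc and 15.2, 17.96 and 17.2 CPM in PC2 libraries. PC2 lay between the other groups without overlap, with a change of 1.04 ± 0.087 from Non surgery and a difference of -0.88 ± 0.074 from Luc. Against Luc, 6 of the 11 osteocyte genes were lower in PC2 and 2 higher. Fgf23, the phosphate-regulating hormone of osteocytes, was the member that fell: it read 2.88, 2.82 and 2.64 CPM in Non surgery, 0.104, 0.106 and 0.162 CPM in Luc and 0.367, 0.304 and 0.367 CPM in PC2 libraries (-2.98 ± 0.27). Osteoclasts, the bone-resorbing cells, had 11 of 15 genes higher and 3 lower (median 0.51). Ctsk, their collagen-cleaving cathepsin, rose by 1.52 ± 0.030 and Acp5 by 1.28 ± 0.039, while Calcr, the calcitonin receptor, fell by 1.69 ± 0.23 and Itgb3, also a platelet integrin, fell by 1.19 ± 0.040.

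Fibrous connective tissue rose as a whole. All 12 collagens of this list rose (median 2.17), led by Col3a1 with 2.79 ± 0.041, Col6a1 with 2.34 ± 0.049 and Col16a1 with 2.31 ± 0.039. All 15 enzymes and chaperones of collagen modification rose too (median 1.52). Loxl4 and Loxl2, lysyl oxidases that crosslink collagen, rose by 2.97 ± 0.095 and 2.54 ± 0.053, and Serpinh1, the collagen chaperone HSP47, by 2.21 ± 0.037. All 12 small leucine-rich proteoglycans, which bind collagen fibrils, rose (median 1.96), with Fmod at 2.32 ± 0.046 and Prelp at 2.19 ± 0.042. All 16 elastic fibre genes rose (median 0.95), Mfap2 the most with 2.49 ± 0.11.

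Between the viruses these matrix groups parted. Among connective tissue collagens, 3 were higher and 8 lower in PC2 than in Luc, with a median of -0.21. Among cartilage collagens 6 of 6 were higher, with a median of 1.06. Col3a1, the collagen of loose and scar tissue, read 798, 812 and 700.1 CPM in Non surgery, 5877, 6127 and 5924 CPM in Luc and 5318, 5335 and 5287 CPM in PC2 libraries, lower in PC2 than in Luc by a difference of -0.17 ± 0.039.

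Matrix-degrading enzymes rose in most cases. Of 14 matrix metalloproteinases tested, 10 rose and 4 fell (median 1.18), and 17 ADAMTS genes had 16 higher and 0 lower (median 1.02). Mmp3, stromelysin, read 6.71, 5.69 and 5.65 CPM in Non surgery, 117, 107 and 114 CPM in Luc and 88.3, 88.5 and 84.9 CPM in PC2 libraries. Mmp13, the collagenase that cleaves collagen II, read 248, 246 and 248 CPM in Non surgery, 1219, 1193 and 1206 CPM in Luc and 967, 944 and 957 CPM in PC2 libraries. Both were highest in Luc and lowest in Non surgery, with no overlap between groups. Their changes from Non surgery were 3.86 ± 0.065 and 1.95 ± 0.027, and their differences from Luc -0.37 ± 0.047 and -0.33 ± 0.026.

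The aggrecanase Adamts4 read 1.62, 2.24 and 3.12 CPM in Non surgery, 22.5, 22.9 and 22.4 CPM in Luc and 15.3, 14.2 and 14.9 CPM in PC2 libraries. It rose by 2.67 ± 0.14 and was lower than in Luc (-0.61 ± 0.095, adjusted p = 1.2e-04). Adamts5, the other main aggrecanase of mouse cartilage, did not follow that order: it read 45.9, 41.9 and 44.8 CPM in Non surgery, 67.7, 72.7 and 72.6 CPM in Luc and 79.2, 74.9 and 80.3 CPM in PC2 libraries and was higher than in Luc (0.14 ± 0.047, adjusted p = 0.033). Adamts18 and Adamts16 rose by 2.79 and 2.34, and Adamts20 did not pass (0.34 ± 0.24). The metalloproteinases that fell were Mmp12, an enzyme of macrophages (-1.94 ± 0.14), Mmp8 and Mmp25, enzymes of neutrophils (-1.004 ± 0.040 and -0.84 ± 0.046), and Mmp19 (-0.39 ± 0.056). Of the 5 inhibitors tested, 3 rose, with Timp2 at 1.40 ± 0.036 and Timp1 at 1.22 ± 0.047, and Timp4 and Timp3 fell, with changes of -1.46 ± 0.089 and -0.53 ± 0.034.

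Synovium, the lining of the joint, makes the lubricants hyaluronan and lubricin. Of 18 genes of the synovial lining and of other fibroblasts, 16 rose and 1 fell (median 1.49). The hyaluronan synthases Has1 and Has2 rose by 3.56 ± 0.078 and 2.74 ± 0.13, and Cemip, which takes part in breaking hyaluronan down, by 3.27 ± 0.059. Prg4, which encodes lubricin, read 2042, 2049.8 and 1839 CPM in Non surgery, 5308, 5391 and 5458 CPM in Luc and 5964, 5953 and 5845 CPM in PC2 libraries (1.58 ± 0.032). Clic5 did not pass (-0.018 ± 0.033, and 0.14 under library size scaling, where it passed), and its PC2 libraries lay 0.94 ± 0.033 above Luc. Vcam1, an adhesion molecule of lining and marrow stroma, fell by 1.699 ± 0.034. All 8 tendon genes rose (median 1.81), among them Tnmd, tenomodulin, with 1.92 ± 0.081 and the transcription factor Scx with 1.71 ± 0.23. Thbs4, Tnc, Kera, Fmod and Col14a1 of this list are also counted in the matricellular, proteoglycan or connective tissue collagen lists.

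Signals that shape bone and cartilage rose along with the matrix. Of 21 Wnt pathway genes tested, 19 rose and 1 fell (median 1.21), and those with the largest rises were secreted inhibitors. Wif1, which binds Wnt proteins, read 28.5, 27.4 and 29.6 CPM in Non surgery, 159.7, 154 and 159 CPM in Luc and 203, 206 and 205 CPM in PC2 libraries, and rose by 2.84 ± 0.040. The decoy receptors Sfrp2 and Frzb rose by 2.73 and 2.24 and the inhibitor Dkk1 by 2.42, and Wnt4 did not pass (0.15 ± 0.11). Of 20 genes of the BMP pathway, 17 rose and 2 fell (median 0.82), with the BMP antagonist Chrdl2 at 2.02 ± 0.17 and the ligand Gdf10 at 1.87 ± 0.062. Matricellular proteins, which tie cells to matrix under repair, rose in 15 of 16 (median 1.32). Tnc, tenascin C, read 209, 219 and 204 CPM in Non surgery, 868, 861 and 883 CPM in Luc and 633, 621 and 617 CPM in PC2 libraries, so PC2 lay between the other groups. Sparc, osteonectin, rose by 2.25 ± 0.023, and Thbs1, a thrombospondin that platelets also carry, fell by 0.72 ± 0.035.

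Immediate-early genes respond within minutes to growth factors, mechanical load or tissue handling, and much of their control sits just before the transcription start, where cyclic AMP response elements bind CREB. The 250 bases before the start are shown for 4 members that were picked because they rose and hold the letters in capitals. They are RefSeq sequences of GRCm38.p6, counted from RefSeq's start, which for Fosb lies a few bases inside the GENCODE gene whose coordinates are given with its values, written from 5′ to 3′ on the gene's strand, and capitals mark TGACG or its reverse complement CGTCA, core letters of the cyclic AMP response element.
Fos (chr12:85473640-85473889, plus strand): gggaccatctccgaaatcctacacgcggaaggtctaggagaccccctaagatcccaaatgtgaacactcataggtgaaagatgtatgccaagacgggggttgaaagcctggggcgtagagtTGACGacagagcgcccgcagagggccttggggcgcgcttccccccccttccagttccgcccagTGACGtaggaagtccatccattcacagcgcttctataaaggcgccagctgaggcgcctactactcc
Fosb (chr7:19310046-19310295, minus strand): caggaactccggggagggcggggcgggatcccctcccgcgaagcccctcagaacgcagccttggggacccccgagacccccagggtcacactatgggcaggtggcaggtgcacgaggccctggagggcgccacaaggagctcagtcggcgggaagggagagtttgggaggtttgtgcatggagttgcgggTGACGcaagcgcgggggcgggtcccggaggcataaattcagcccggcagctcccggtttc
Junb (chr8:84978749-84978998, minus strand): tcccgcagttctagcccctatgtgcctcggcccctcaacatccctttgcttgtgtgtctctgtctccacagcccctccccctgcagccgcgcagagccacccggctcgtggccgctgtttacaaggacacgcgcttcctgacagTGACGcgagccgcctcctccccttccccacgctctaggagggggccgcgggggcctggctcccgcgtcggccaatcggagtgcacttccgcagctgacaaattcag
Nr4a2 (chr2:57124004-57124253, minus strand): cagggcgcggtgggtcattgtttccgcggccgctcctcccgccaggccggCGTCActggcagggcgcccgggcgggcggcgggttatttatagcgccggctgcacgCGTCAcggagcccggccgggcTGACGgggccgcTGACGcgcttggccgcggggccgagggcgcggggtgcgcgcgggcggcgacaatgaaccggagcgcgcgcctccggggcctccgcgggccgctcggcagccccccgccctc
The last capitals of Fos start 66 bases before the transcription start and those of Fosb 60 bases before it. Of 22 immediate-early genes of the list with a sequence in the table, 15 hold TGACG on either strand in this window (68.2%). The share was 19.8% over all 27025 genes in the table. The letters did not go with the direction of change member by member: Nr4a3 and Atf3, which fell, and Btg2 and Maff, which did not pass, hold them too, and Jun, Jund, Fosl2, Ier3, Klf6 and Zfp36, which rose and are named outside the naming rule, do not. A match of letters is a description and no shown binding site.

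Of 26 immediate-early genes tested, 19 rose and 3 fell in PC2 against Non surgery (median 0.85). Fosb (chromosome 7, 19302696 to 19310051), whose window is shown above, read 2.34, 1.78 and 2.40 CPM in Non surgery, 531, 539.9 and 584 CPM in Luc and 204, 208 and 211 CPM in PC2 libraries. Fos read 19.6, 18.6 and 18.6 CPM in Non surgery, 705, 725 and 723 CPM in Luc and 342, 356 and 342 CPM in PC2 libraries. In both genes Luc was highest and PC2 intermediate, with no overlap. Fosb rose 95.3-fold (6.57 ± 0.071) and Fos 18.3-fold (4.19 ± 0.039), and against Luc they differed by -1.41 ± 0.045 and -1.05 ± 0.033.

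Egr1, an early zinc finger factor, rose by 3.71 ± 0.064, Nr4a2 by 2.42 ± 0.11, Junb by 2.08 ± 0.055 and Klf4 by 2.02 ± 0.041. The members that fell were Nr4a3 (-2.14 ± 0.090), Atf3, a stress factor (-0.67 ± 0.079), and Myc (-0.32 ± 0.051). Maff, Btg2, Ier5 and Fosl1 did not pass, and under library size scaling Btg2 (0.13) and Maff (0.38) did and without Non surgery replicate 3 Maff and Ier5 did (0.30 and -0.17). In the direct test 22 of 26 were lower in PC2 than in Luc and 2 higher, beside 18.6% of all genes lower. Of 14 heat shock genes tested, 2 rose and 9 fell (median -0.24). Hspb1 and Cryab, small heat shock proteins abundant in muscle, fell, with changes of -1.69 ± 0.066 and -0.99 ± 0.033. The labels do not give the time between death and RNA extraction in each group.

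Glucocorticoid-responsive genes went the other way. Of 14 tested, 12 fell and 2 rose (median -1.61). Fkbp5, a chaperone of the glucocorticoid receptor and a standard target of it, fell by 2.33 ± 0.048, from 211 ± 3.36 to 41.8 ± 2.98 CPM, with Luc at 44.7 ± 1.30 CPM. Zbtb16, Hif3a and Ddit4 fell, with changes of -2.40 ± 0.080, -2.40 ± 0.18 and -2.29 ± 0.054. Pdk4, described below with fuel genes, is a member too. Dusp1 and Errfi1, which are immediate-early genes as well, were the members that rose (1.80 ± 0.037 and 0.74 ± 0.035). Several of these genes are abundant in muscle, where Fbxo32 and Trim63, the ubiquitin ligases of muscle wasting, fell too, fell by 1.33 ± 0.040 and 2.37 ± 0.041.

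Inflammatory signals were uneven. Of 22 chemokines tested, 12 rose and 7 fell (median 0.48). Cxcl1, which draws neutrophils, had 5, 4 and 8 counts in the Non surgery libraries and read 0.300, 0.230 and 0.481 CPM there, 17.3, 17.4 and 19.2 CPM in Luc and 5.76, 4.82 and 7.87 CPM in PC2 libraries. Cxcl2, its close relative, read 1.14, 1.09 and 1.08 CPM in Non surgery, 41.3, 45.2 and 42.2 CPM in Luc and 2.25, 2.74 and 3.36 CPM in PC2 libraries. Both rose, by 4.17 ± 0.28 and 1.33 ± 0.19, and both were lower than in Luc, with Cxcl2 at -3.94 ± 0.10 close to Non surgery. The monocyte chemokines Ccl7, Ccl8 and Ccl2 rose by 2.25, 1.71 and 1.502, while Cxcl5 and Cxcl13 fell, with changes of -1.90 and -1.82.

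Among 19 cytokine and prostaglandin genes, 9 rose and 4 fell (median 0.59). Ptgs2, the inducible cyclooxygenase, read 1.20, 1.73 and 1.32 CPM in Non surgery, 38.4, 39.0 and 35.6 CPM in Luc and 9.85, 7.51 and 8.76 CPM in PC2 libraries, a rise of 2.61 ± 0.15. Il1b rose by 0.97 ± 0.064, from 16.2 ± 1.39 to 31.8 ± 0.710 CPM, and Il1a and Tnf fell, with changes of -1.23 ± 0.17 and -0.62 ± 0.13. Il6 did not pass: it read 0.659, 0.978 and 0.721 CPM in Non surgery and 1.21, 1.01 and 1.36 CPM in PC2 libraries (0.59 ± 0.31, adjusted p = 0.11), and 6.91, 4.81 and 4.63 CPM in Luc libraries. Ptgs2 and Il6 were lower in PC2 than in Luc by differences of -2.11 ± 0.093 and -2.19 ± 0.22.

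Interferon-stimulated genes had a median of -0.063, which turned to 0.096 under library size scaling, with 9 of 30 higher and 8 lower, shares close to or under the background of 31.5% and 31.2%. In the direct test 24 of 30 were lower in PC2 than in Luc and 1 higher (median -0.47). Zbp1, a sensor of nucleic acids, read 5.70, 7.99 and 6.67 CPM in Non surgery, 15.6, 16.1 and 14.98 CPM in Luc and 7.33, 6.70 and 6.56 CPM in PC2 libraries. Its PC2 and Non surgery libraries overlapped. Ifi27l2a was the exception at the top (1.79 ± 0.075), and Mx1 had the largest fall (-1.33 ± 0.098). MHC class II genes had 6 of 10 higher and 4 lower (median 0.25). Complement genes rose in 13 of 17 and fell in 3 (median 0.60). Cfd, also a member of the adipocyte list described below, rose by 1.92 ± 0.043 and C4b by 1.69 ± 0.041.

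Eosinophil genes had the lowest median of the blood cell lists described here. Eosinophils are granulocytes that carry peroxidase and major basic protein in their granules. All 10 genes of the list fell, each by at least 2-fold (10 of 10, where 6.53% of all genes did), with a median of -2.64. Epx, eosinophil peroxidase (chromosome 11, 87864000 to 87875536), read 105, 119.6 and 104 CPM in Non surgery, 289, 287 and 287 CPM in Luc and 8.38, 8.02 and 8.60 CPM in PC2 libraries. Prg2, major basic protein, read 227, 243 and 238 CPM in Non surgery, 577, 642 and 562 CPM in Luc and 29.9, 26.8 and 31.0 CPM in PC2 libraries. PC2 was lowest and Luc highest in both, with no overlap. Epx fell 13.1-fold (-3.71 ± 0.060) and Prg2 8.08-fold (-3.01 ± 0.059), and their differences from Luc were -5.11 ± 0.061 and -4.34 ± 0.062.

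Prg3 fell by 2.68 ± 0.14 and the lipoxygenase Alox15 fell by 2.595 ± 0.064. Ear1 and Ear6, eosinophil ribonucleases, fell, with changes of -3.36 ± 0.084 and -3.45 ± 0.072, though these genes have near-identical copies and the split of reads among them is uncertain. To complete the list, Ear2, the interleukin-5 receptor Il5ra, the eotaxin receptor Ccr3 and the lectin Siglecf, which the naming rule leaves out, fell, with changes of -1.89 ± 0.062, -2.27 ± 0.31, -1.39 ± 0.064 and -1.14 ± 0.13. Ccr3 differed from the other members in having its Luc libraries (21.3, 21.6 and 21.8 CPM) below Non surgery (34.1, 32.4 and 35.7 CPM). Summed over the list, the level was 550.1 to 586 CPM in Non surgery, 1357 to 1486 CPM in Luc and 81.2 to 87.6 CPM in PC2 libraries. With 1 pool per group, a difference between a few mice cannot be told apart from one between treatments.

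**Figure D3:**
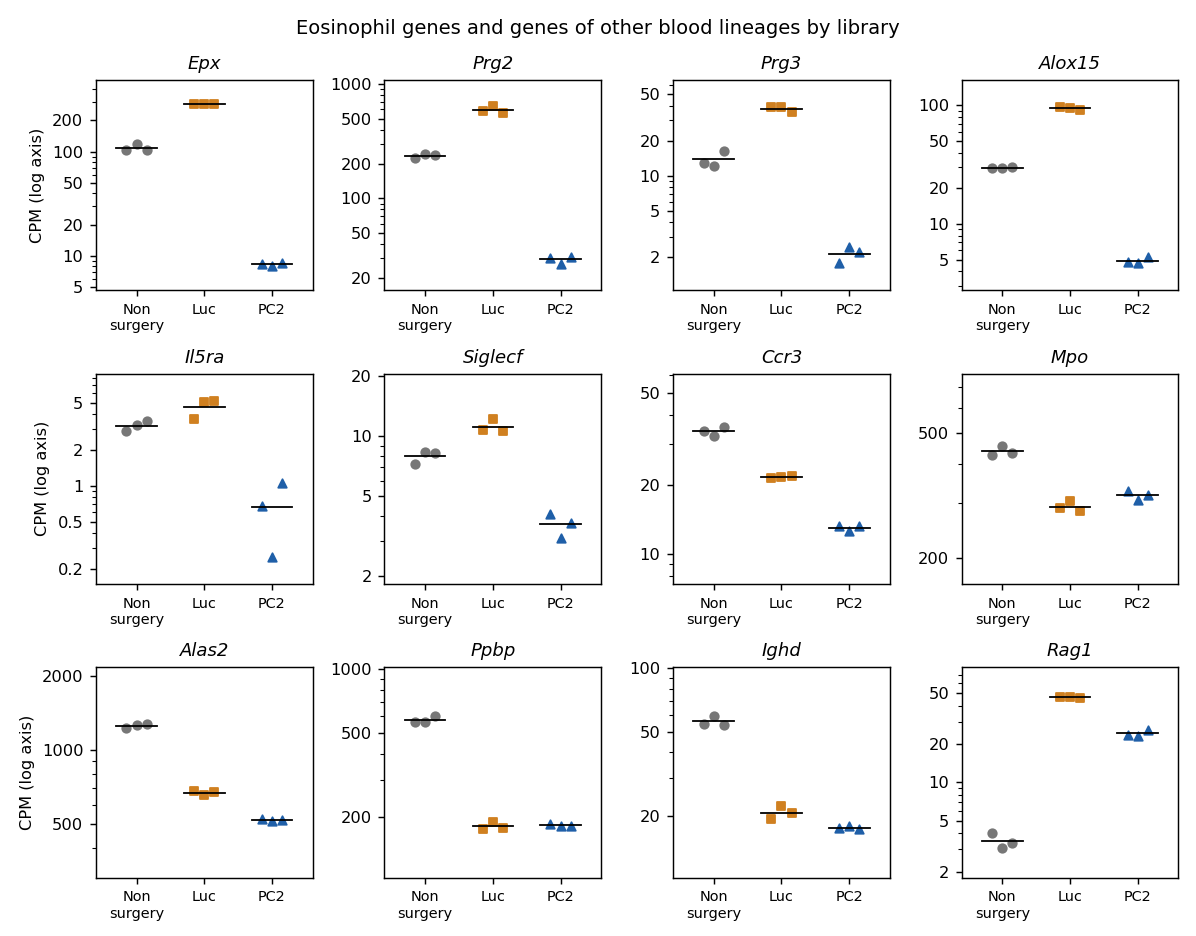
CPM of 7 eosinophil genes (Epx to Ccr3) and of marker genes of neutrophil precursors (Mpo), red cells (Alas2), platelets (Ppbp), mature B cells (Ighd) and B cell precursors (Rag1) by library on log axes, with 3 libraries per group and a bar at each mean. The 7 eosinophil genes are lowest in PC2, while Rag1 is higher in PC2 and Luc than in Non surgery and Alas2, Ppbp and Ighd are lower.

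Other marrow lineages fell less. All 21 erythroid genes fell (median -0.70), from 9742 to 9926 CPM summed over the list in Non surgery to 5706 to 5785 CPM in PC2, and Alas2, the first enzyme of haem synthesis in red cells, fell by 1.27 ± 0.028. Of 15 megakaryocyte and platelet genes 14 fell (median -1.52), led by the von Willebrand receptor chain Gp1ba with -2.12 ± 0.062 and the platelet tubulin Tubb1 with -2.09 ± 0.063, and P2ry12 did not pass. Neutrophil genes fell in 16 of 20 and rose in 3 (median -0.34): Chil3 and Cxcr2 fell, with changes of -1.32 ± 0.031 and -1.13 ± 0.036, and Ly6g, Camp and Csf3r rose by 0.91, 0.22 and 0.14. Macrophage genes were divided, 7 of 20 higher and 10 lower (median -0.16). Genes carried by resident macrophages of tissue went both ways. Folr2, Vsig4 and Lyve1 rose by 2.13, 1.69 and 0.91, whereas Timd4 and the haemoglobin scavenger receptor Cd163 fell, with changes of -1.83 and -1.81.

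The B lineage split by stage. Of 15 B cell precursor genes, 14 rose and 1 fell (median 1.47). Igll1, part of the surrogate light chain of pre-B cells, read 0.959, 0.920 and 1.08 CPM in Non surgery, 17.3, 18.2 and 18.8 CPM in Luc and 10.5, 11.97 and 10.96 CPM in PC2 libraries. Rag1, which cuts immunoglobulin genes for recombination, read 4.02, 3.05 and 3.36 CPM in Non surgery, 46.9, 46.7 and 45.6 CPM in Luc and 23.7, 23.1 and 25.8 CPM in PC2 libraries. Both were lowest in Non surgery and highest in Luc, without overlap, and rose by 3.49 ± 0.14 and 2.80 ± 0.092. Mature B and plasma cell genes fell in 8 of 14 and rose in 3 (median -0.62). Among them Cr2 and Fcer2a, receptors of mature B cells, fell, with changes of -2.43 ± 0.20 and -2.09 ± 0.11, and Ighd fell by 1.68 ± 0.062, from 56.0 ± 2.92 to 17.5 ± 0.308 CPM.

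Skeletal muscle genes fell, and the list of slow and oxidative fibre genes fell more than the fast muscle list. Slow fibres are oxidative and use fatty acids, and fast fibres rely more on glycogen. Of 18 slow and oxidative fibre genes 17 fell (median -2.34), and all 22 genes of the fast muscle list fell (median -1.005). The lists are not strictly slow against fast. The former holds Myh2, a myosin of fast oxidative fibres, and the latter holds genes of muscle at large such as Acta1, Ckm and Ttn. The pairs of slow and fast forms below compare the fibre types more directly. Myh7, the slow myosin heavy chain (chromosome 14, 54970684 to 54994626), read 95.6, 105 and 87.7 CPM in Non surgery, 3.07, 2.33 and 2.64 CPM in Luc and 3.98, 3.65 and 3.09 CPM in PC2 libraries. Myh4, the fastest myosin heavy chain, read 17334, 17661 and 17669 CPM in Non surgery, 8119.5, 7939 and 8082 CPM in Luc and 9302, 9211 and 9269 CPM in PC2 libraries. Myh7 fell by 4.75 ± 0.095 and Myh4 fell by 0.92 ± 0.014, so the slow form fell more.

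Per kilobase of exon, Myh4 stood at 2918 and Myh7 at 11.2 RPKM in Non surgery, and at 1539 and 0.415 RPKM in PC2. In 6 of the 7 pairs of slow and fast forms of a protein the slow form fell more. The slow troponin Tnni1 fell by 3.54 ± 0.15 and the fast Tnni2 fell by 0.86 ± 0.031, and the myosin light chains Myl3 and Myl1 fell, with changes of -4.06 ± 0.080 and -0.66 ± 0.025. The calcium pumps were the exception: the slow Atp2a2, which other tissues also make, fell by 0.42 ± 0.035 and the fast Atp2a1 fell by 1.23 ± 0.027. Genes of the neuromuscular junction and of muscle regeneration fell in 12 of 18, the kinase Musk fell by 3.27 ± 0.098 and the muscle regulator Myf6 fell by 2.25 ± 0.063, while Myl4, Runx1 and Ncam1 rose.

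**Figure D4:**
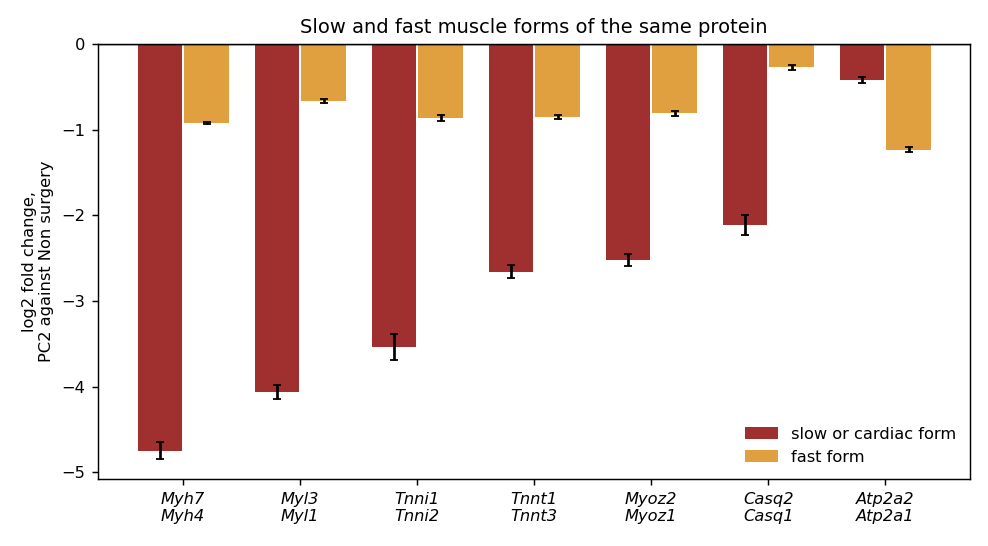
Log2 fold change between PC2 and Non surgery (y axis) of 7 pairs of proteins with a slow or cardiac form (red) and a fast form (yellow); error bars are SE from the fit. All 14 genes fell, from -0.27 for Casq1 to -4.75 for Myh7, and the slow form fell more in 6 of 7 pairs.

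Most genes for burning fatty acids fell. Of 22 tested, 21 fell and 0 rose (median -1.28). Pdk4, a kinase that slows the use of pyruvate during fasting (chromosome 6, 5483351 to 5496309), read 2296, 2231 and 2233 CPM in Non surgery, 254, 254 and 252 CPM in Luc and 49.98, 45.9 and 49.7 CPM in PC2 libraries. Ucp3, a mitochondrial carrier of muscle, read 344, 352 and 355 CPM in Non surgery, 35.0, 31.5 and 33.6 CPM in Luc and 14.0, 13.4 and 14.3 CPM in PC2 libraries. PC2 was lowest in both, with Luc between and no overlap. Pdk4 fell 46.4-fold (-5.54 ± 0.038), the largest fall among the genes the naming rule considers, and stood -2.38 ± 0.034 from Luc. Ucp3 fell 25.2-fold (-4.65 ± 0.048) and differed by -1.26 ± 0.050 from Luc.

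The lipid droplet protein Plin5 fell by 3.63 ± 0.11, the nuclear receptor Ppara fell by 3.26 ± 0.13, the thioesterase Acot1 fell by 2.57 ± 0.16 and the coactivator Ppargc1a fell by 2.47 ± 0.085. Plin5 and Acot1 were lower in PC2 than in Luc (-1.33 ± 0.14 and -1.28 ± 0.18), and for Ppara this difference did not pass (0.32 ± 0.19, adjusted p = 0.27). Ppard, another receptor for fatty acids, did not pass (-0.0078 ± 0.060), but did under library size scaling (0.15). Of the 10 largest falls given above, Slc25a34, a mitochondrial carrier, and Lipg, endothelial lipase, fell, with changes of -4.08 ± 0.18 and -4.13 ± 0.095.

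Glycogen and glycolysis genes fell in 18 of 19 (median -1.05), near the fast muscle median of -1.005. Ppp1r3c, which targets a phosphatase to glycogen, read 546, 517 and 540.3 CPM in Non surgery, 42.5, 40.6 and 44.4 CPM in Luc and 88.2, 87.5 and 89.1 CPM in PC2 libraries, and it fell by 2.599 ± 0.038, and here PC2 lay above Luc (1.05 ± 0.039). Gapdh did not pass (-0.67 ± 0.30), although it did without Luc replicate 2 or 3 (both -0.67) or Non surgery replicate 1 (-0.99), and its 40.6 CPM is a low count for this enzyme, which has many copies in the genome, so its value is uncertain. Nuclear genes of the respiratory chain fell in 54 of 78 and rose in 5 (median -0.29). Against Luc 63 of the 78 were higher and 0 lower. Of 13 genes of the mitochondrial genome 7 fell (median -0.86), mt-Co1 fell by 0.90 ± 0.028.

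Fat synthesis genes did not share the fall of fat burning. Of 16 tested, 11 rose and 5 fell (median 0.44). Fasn, fatty acid synthase, read 75.2, 79.8 and 71.6 CPM in Non surgery, 90.3, 95.3 and 97.1 CPM in Luc and 252, 248 and 246 CPM in PC2 libraries. Scd1, the desaturase that makes oleate, read 442, 449.7 and 434 CPM in Non surgery, 213, 226 and 212 CPM in Luc and 1001, 1016 and 1009.6 CPM in PC2 libraries. PC2 was highest in both without overlap, and for Scd1 the Luc libraries were below Non surgery. Fasn and Scd1 rose by 1.72 ± 0.043 and 1.19 ± 0.032, and stood 1.40 ± 0.043 and 2.22 ± 0.033 above Luc.

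Pnpla3, a lipase of lipid droplets, read 3.72, 4.54 and 4.93 CPM in Non surgery, 2.03, 2.80 and 3.07 CPM in Luc and 29.5, 28.9 and 27.3 CPM in PC2 libraries, a rise of 2.70 ± 0.11. Thrsp, a protein of fat synthesis, rose by 1.52 ± 0.097. Acacb and Gpam, members of the same list, fell, with changes of -1.92 ± 0.041 and -1.34 ± 0.049. Adipocyte genes rose in 9 of 14 and fell in 4 (median 0.46). Adipoq, which encodes adiponectin, rose by 1.43 ± 0.050, Plin1, the coat of fat droplets, by 2.79 ± 0.068, and Retn, resistin, by 1.98 ± 0.12. Lep, leptin, read 10.2, 8.396 and 9.55 CPM in Non surgery, 2.81, 2.70 and 2.16 CPM in Luc and 9.74, 11.4 and 13.9 CPM in PC2 libraries, so that PC2 and Non surgery overlapped, and its call (0.32 ± 0.13) was lost without Non surgery replicate 2 (0.24) or 3 (0.33) or without PC2 replicate 2 (0.33) or 3 (0.18). Plin4 and Pnpla2 fell, with changes of -1.90 ± 0.044 and -1.10 ± 0.038. Summed over the adipocyte list, the level was 2438 to 2493 CPM in Non surgery, 1574 to 1601 CPM in Luc and 2249.6 to 2259.6 CPM in PC2 libraries, and the labels do not say how much fat pad each joint sample held.

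**Figure D5:**
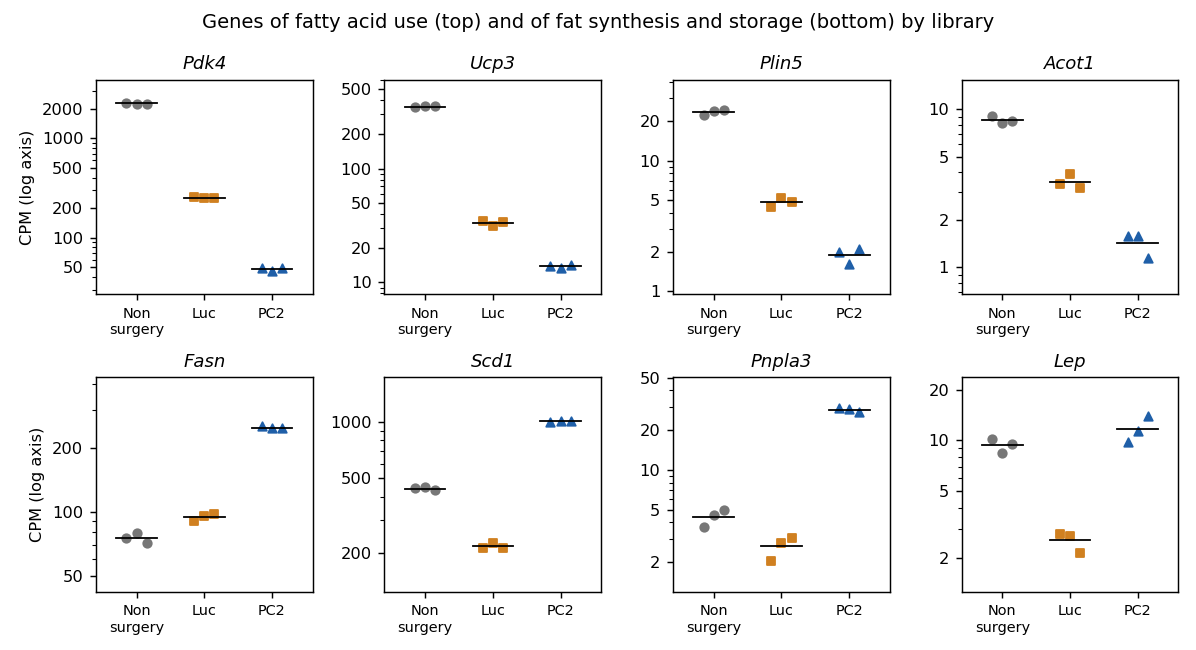
CPM by library on log axes of 4 genes of fatty acid use (Pdk4, Ucp3, Plin5, Acot1) and 4 genes of fat synthesis or storage (Fasn, Scd1, Pnpla3, Lep), with 3 libraries per group and a bar at each mean. The 4 upper genes step down from Non surgery to Luc to PC2, whereas Fasn, Scd1 and Pnpla3 are highest in PC2 and Lep overlaps between PC2 and Non surgery.

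The study's title also names senescence and the nucleolus. Senescent cells raise the cell cycle inhibitors Cdkn2a and Cdkn1a. Cdkn2a read 0.300, 0.230 and 0.240 CPM in Non surgery, 1.40, 1.004 and 1.29 CPM in Luc and 1.26, 0.507 and 0.629 CPM in PC2 libraries, and its counts were 5, 4 and 4 in Non surgery and 24, 10 and 12 in PC2. It rose by 1.61 ± 0.46, and its difference from Luc did not pass (-0.63 ± 0.33, adjusted p = 0.16). Cdkn1a read 223, 217 and 215 CPM in Non surgery, 103, 106 and 109 CPM in Luc and 108, 105 and 111 CPM in PC2 libraries, and it fell by 1.02 ± 0.037. Its difference from Luc did not pass either (0.027 ± 0.037, adjusted p = 0.62). Of 20 cell cycle inhibitors and p53 targets, 5 rose and 14 fell (median -0.86). By at least 2-fold, 2 rose, Cdkn2a among them, and 10 fell. The p53 targets Aen, Ccng1, Sesn2 and Eda2r fell, with changes of -1.75, -1.68, -1.65 and -1.65.

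The nucleolus makes ribosomes. Of 36 ribosome biogenesis genes, 5 rose and 19 fell (median -0.17). Fbl, fibrillarin, the methyltransferase of ribosomal RNA, read 50.5, 49.7 and 47.4 CPM in Non surgery, 52.8, 49.0 and 52.2 CPM in Luc and 45.9, 48.7 and 52.7 CPM in PC2 libraries. The 3 groups overlapped, and Fbl differed by -0.0037 ± 0.055 from Non surgery (adjusted p = 0.96), or by 0.16 under library size scaling, where it passed (edgeR adjusted p = 0.020). Rrp12 and Utp20, factors of ribosomal RNA processing, had the largest falls (-1.05 ± 0.050 and -0.91 ± 0.051). Genes of cytosolic ribosomal proteins rose in 64 of 77, with a small median of 0.29. Polycomb repressive complex 2 had 2 of 12 genes higher and 3 lower (median -0.080, and 0.079 under library size scaling). Both shares were under the background of 31.5% higher and 31.2% lower.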

How the data were processed

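Per the labels' protocols, RNA was taken from whole joints with TRIzol, treated with a DNA removal kit and made into libraries with NEBNext Ultra kits. The deposited values are raw counts of reads per Ensembl gene made by the authors. The submitters' processing notes name HISAT2, HTSeq, DESeq2 and the build mm10 without versions or order. No label gives the strand settings, which leaves overlapping and antisense genes uncertain. Of 53379 gene identifiers, 53274 were named from GENCODE M21 (GRCm38), and 105 had no entry there. HTSeq's summary rows were left out of tests and library sizes: reads in no gene were 7.33% ± 0.04 (SD, n = 3) of Non surgery, 9.08% ± 0.18 of Luc and 8.11% ± 0.06 of PC2 libraries.

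All 9 libraries entered one edgeR 4.0.16 quasi-likelihood fit (R 4.3.3, TMM, filterByExpr with a minimum count of 10) with a coefficient per group, and Benjamini-Hochberg adjustment ran over all 17478 genes. "Rose" and "fell" mean an adjusted p under 0.05. RPKM use exon lengths of GENCODE M21. The test of PC2 against Luc shares the PC2 libraries with the main comparison, so values against both are printed side by side. On simulated data for PC2 against Non surgery (17008 genes), 76% of 1.5-fold, 94% of 2-fold, 98% of 4-fold and 100% of 8-fold changes were recovered, and 0.107% of unchanged genes were called. The simulation changed 200 genes in random directions, left all others alike between groups and used the technical spread of the fit. In the data 62.7% of genes were called, so these rates hold for the simulated setting and do not measure the accuracy of the comparison. Libraries of a group differed by more than sampling noise (chi-square per degree of freedom 3.94 to 8.67), so none was counted as a duplicate. Alternatives were other normalizations, count filters, DESeq2 1.42.0, the 6 libraries alone, a replicate block and leaving out each library. The genes and lists were chosen with earlier results of these data known. Some genes are members of several lists, so the counts of such lists are not separate from each other. Genes named are the 10 largest changes per direction with at least 5 CPM and no overlap, a set of 30 genes, up to 6 members per direction of each list, members that did not pass or moved against their list, and pairs of slow and fast muscle forms. The gene targeted by the PC2 virus is not reported here. The precision covers counting and technical spread only.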

Additional observations from a re-analysis of the deposited data

Results flagged for a closer look

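Reads that fell in no annotated gene, which no comparison above uses, made up 8.11% ± 0.06 (SD, n = 3) of PC2 libraries against 7.33% ± 0.04 of Non surgery libraries. All 3 PC2 libraries lay above all 3 Non surgery libraries, and the Luc libraries stood higher still at 9.08% ± 0.18. The difference was not tested further, because the files do not say where these reads lie.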

How the results depend on the processing

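The counts of genes at an adjusted p under 0.05 and at least 2-fold stayed within 1.5 times of 2860 (PC2 against Non surgery) and 578 (PC2 against Luc) under all alternatives run. For PC2 against Non surgery they were 2746 with DESeq2, 2860 with RLE factors, 2466 with at least 1 CPM in 3 libraries, 3386 with no low-count filter, 2739 with the 6 libraries alone and 2956 by library size alone, and 2834 to 2967 when leaving out each library. For PC2 against Luc the range over left-out libraries was 557 to 634. Library size alone raised the median of all genes to 0.17 and turned the changes of Btg2 (0.13), Clic5 (0.14), Fbl (0.16), Ppard (0.15) and Vegfa (0.060) and the medians of interferon-stimulated genes (0.096) and Polycomb complex 2 (0.079), because this scale lifts all genes alike. On this scale Btg2, Clic5, Fbl and Ppard, which did not pass on the main scale, passed as rises (edgeR adjusted p = 0.0085, 0.0014, 0.020 and 0.036), and Vegfa no longer passed (0.21). It also brought Il6, Maff and Wnt4 past the threshold and took Matn1 below it. With DESeq2, and with the 6 libraries alone, Lep no longer passed (0.31 in both). Gapdh passed with no low-count filter (-0.67) and with the 6 libraries alone (-0.68). Of 231 genes named and tested in PC2 against Non surgery, the others kept their direction and their side of the threshold under all of these settings, apart from those given above beside their values for left-out libraries.

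Replicate numbers did not pair the libraries: deviations of libraries with the same number correlated across genes by 0.054, 0.057 and -0.024 between Non surgery and PC2. With a replicate block the count was 2852 (1710 higher and 1142 lower), 577 against Luc, and among named genes the block changed the call of Gapdh alone, which passed (-0.63). At 17835989 to 19004316 counts a library, depth limits genes of a few counts such as Cdkn2a and Cxcl1 in Non surgery.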

Other observations

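Clock genes moved in both directions, and the labels do not give the hours at which joints were collected. Of 19 tested, 7 rose and 11 fell (median -0.40). Npas2, an activator of the clock, read 2.94, 1.61 and 2.40 CPM in Non surgery, 20.1, 19.7 and 21.1 CPM in Luc and 22.9, 19.8 and 21.7 CPM in PC2 libraries. Its partner Arntl rose by 0.88 ± 0.065, and Nr1d1, a repressor of Arntl, rose by 2.44 ± 0.047. The period genes went down: Per1 read 129.9, 135 and 121 CPM in Non surgery, 93.4, 94.9 and 101 CPM in Luc and 43.1, 42.3 and 42.9 CPM in PC2 libraries and fell by 1.59 ± 0.048, and Per2 fell by 1.43 ± 0.076. For Npas2 and Nr1d1 the difference between PC2 and Luc did not pass (0.082 ± 0.093 and 0.090 ± 0.041), while Per1 was lower in PC2 (-1.18 ± 0.048).

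Genes that lay out the limb in the embryo were higher in PC2 than in Non surgery. Of 12 limb transcription factors tested, 10 rose and 1 fell (median 1.51), where 31.5% of all genes rose. Pitx1, which specifies the hindlimb, read 4.50, 4.66 and 3.06 CPM in Non surgery, 14.0, 11.9 and 14.9 CPM in Luc and 18.3, 20.7 and 20.4 CPM in PC2 libraries, and Msx1 and Prrx2 rose by 1.82 ± 0.15 and 2.18 ± 0.15. Tbx15, which muscle also expresses, fell by 0.61 ± 0.035. Of 29 Hox genes 17 rose and 2 fell (median 0.55), led by Hoxc8 with 1.38 ± 0.14. Among 13 imprinted genes 10 rose and 1 fell (median 1.06). Meg3, a maternally expressed RNA, rose by 1.82 ± 0.058, and H19 read 94.7, 99.3 and 90.3 CPM in Non surgery, 49.8, 54.2 and 50.1 CPM in Luc and 32.9, 35.8 and 35.0 CPM in PC2 libraries and fell by 1.45 ± 0.052.

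Antioxidant genes fell in 11 of 16 and rose in 4 (median -0.65). Hmox1, haem oxygenase, which macrophages that take up red cells make in quantity, fell by 1.71 ± 0.035, while Sod3, the superoxide dismutase of the extracellular matrix, rose by 2.13 ± 0.069. Of 12 smooth muscle and pericyte genes, 8 rose and 3 fell (median 0.69). Cnn1, calponin, read 3.06, 3.80 and 3.24 CPM in Non surgery, 2.34, 2.22 and 1.99 CPM in Luc and 6.86, 4.57 and 6.14 CPM in PC2 libraries, and its difference from Luc was 1.42 ± 0.18. Of 10 mast cell genes tested, 6 fell and 3 rose (median -0.45), and the level summed over the list was 252 to 256 CPM in Non surgery and 139 to 144 CPM in PC2 libraries. Hdc and Ms4a2, which basophils also express, fell, with changes of -1.23 ± 0.040 and -1.16 ± 0.10. Cma1 and Mcpt4, proteases of connective tissue mast cells, rose by 1.49 ± 0.26 and 1.14 ± 0.20 and were 1.12 ± 0.24 and 1.13 ± 0.20 above Luc. Of 18 genes of T and natural killer cells 7 fell, 1 rose and 10 did not pass, where 31.2% of all genes fell and 31.5% rose. Cd8a and Cd8b1, the CD8 chains, fell, with changes of -1.12 ± 0.17 and -1.48 ± 0.30.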
